A study of Mus musculus with 4 samples.

Results

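Enzymes that clear foreign and reactive compounds were examined in mouse CD4+ T cells cultured with dimethyl fumarate (DMF). The members were all protein coding rows of the deposited table named as glutathione S-transferases (Gst and the microsomal Mgst), aldo-keto reductases (Akr), aldehyde dehydrogenases (Aldh), carbonyl reductases (Cbr), epoxide hydrolases (Ephx), quinone reductases (Nqo), sulfotransferases (Sult) or UDP-glucuronosyltransferases (Ugt). This rule took 116 of the 54532 rows. They comprised 22 Gst, 3 Mgst, 17 Akr, 21 Aldh, 4 Cbr, 4 Ephx, 2 Nqo, 21 Sult and 22 Ugt genes. RNA-seq libraries came from 2 DMF cultures and 2 control cultures without DMF. In both groups, naive CD4+ T cells from the spleens of wild-type mice spent 3 days in culture under a T follicular helper (Tfh) protocol, which steers them toward the helper T cells of B cell follicles. The labels give neither the dose of DMF nor whether the libraries of a group came from separate cultures or animals, so each p-value rests on the spread among these 4 libraries, and that spread may be technical. The series title ties DMF to Tfh differentiation through Nrf2, so the comparison asks which of these enzymes differed in RNA level between DMF and control cultures.

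As background, these enzymes work in sequence. Oxidation, reduction or hydrolysis of a compound by dehydrogenases, reductases and epoxide hydrolases is followed by its conjugation to glutathione, sulfate or glucuronic acid. DMF is an electrophile that reacts with the thiol of glutathione and with cysteines of Keap1, the protein that holds the transcription factor Nrf2 in check, and Nrf2 drives many of these genes through the antioxidant response element. The aryl hydrocarbon receptor drives an overlapping set through the xenobiotic response element, and Nqo1 is a classical target of both.

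The table gives FPKM (fragments scaled to gene length and library size), and whole reads per gene were worked out from it, 17134385 and 17516953 in DMF replicates 1 and 2 and 17171199 and 15900118 in control replicates 1 and 2. The 2 controls differed more from each other than the 2 DMF libraries did. The log2(FPKM + 1) difference between replicates had an SD of 0.74 over 12166 genes for the controls, against 0.32 for the DMF libraries, and the members shared in this. Of the 35 members tested, 29 (82.86%) were higher in control replicate 2 than in control replicate 1, against 53.2% of all tested genes, and the median difference was 0.55 on the log2 scale for members and 0.06 for all tested genes. Across the 35 members that difference went with gene length (Spearman's rho = -0.52, a description over genes that share the same 2 libraries). Values without control replicate 2 are therefore given beside the members that they move. Among defining T cell markers all 8 were tested, and their summed level was 1572 to 1596 FPKM in DMF and 1627 to 2390 FPKM in control libraries. Of these 8, 5 lay below both controls and 0 above. The 9 markers of CD8 T and NK cells summed to 8.2 and 8.23 FPKM in DMF libraries, against 34.6 and 72.6 FPKM in controls; Klrb1c and Ncr1 had 0 reads in every library, and 6 of the 9 markers lay below both controls. B cell markers summed to 92.7 and 91.9 FPKM in DMF and 82.5 and 122.7 FPKM in control libraries, with 8 of 9 above both controls. Ighm, the 1 marker below both controls, held most of that sum. It was at 62.7 and 62.4 FPKM in DMF and 71.55 and 107.5 FPKM in control libraries. Myeloid and dendritic markers summed to 1.36 to 3.44 FPKM in DMF and 4.43 to 7.29 FPKM in control libraries, with 5 of 10 below both controls. Stromal and endothelial markers summed to 4.56 to 4.98 FPKM in DMF and 11.8 to 14.9 FPKM in control libraries. Of these 5 genes 1, Pecam1, lay below both controls and held most of the sum. Col1a1 and Col1a2 each had 256 reads in control replicate 1, against 12 and 0 in control replicate 2. In DMF replicates 1 and 2 Col1a1 had 37 and 38 reads and Col1a2 40 and 1. Erythroid markers summed to 0.873 to 2.26 FPKM in DMF and 1.1 to 1.25 FPKM in control libraries, and mast cell and basophil markers to 0 in DMF and at most 0.414 FPKM in control libraries. Among all tested genes, 26.4% lay above and 26.8% below both controls. For genes under 1 FPKM with at least 20 reads these shares were 25.2% and 18.6%. In bulk samples like these, fewer cells of a type and less RNA per cell cannot be told apart. The part of these cell types in the results below was not tested.

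Of the 116 members, 37 had no read in any library, 27 had 1 to 19 reads in all, 17 had at least 20 reads but a mean under 1 FPKM, and 35 reached a mean of 1 FPKM over the 4 libraries and entered the test. A library with 0 reads of a gene allows up to 3 by counting error alone. Silent members were mostly conjugating enzymes: 14 of 21 Sult and 12 of 22 Ugt genes had no read, against 3 of 21 Aldh and 0 of 4 Cbr genes. The alpha-class transferases Gsta1 and Gsta2 and the soluble epoxide hydrolase gene Ephx2 were also without a read. Expression was concentrated in a few genes. The 3 members with the highest mean, Ephx1, Akr1a1 and Gstp3, held 45.9% to 51.5% of the summed FPKM of all members in each library.

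limma called 0 of the 35 tested members at an adjusted p under 0.05 in either direction, against 0% of the 12166 genes tested, and limma's voom on recovered reads also called 0. At an unadjusted p under 0.05, limma placed 0 members higher in DMF cultures, where the share of all tested genes was 3.14%, and 4 members lower (Gstt1, Mgst2, Gstk1 and Akr1c18), where that share was 6.31%. Both DMF libraries lay above both controls in 8 members (22.9%), close to the 26.4% of all tested genes. They lay below both controls in 14 members (40%), against 26.8% of all tested genes. Of these 14, 13 were higher in control replicate 2 than in control replicate 1, and 10 had a DMF mean within 1.5-fold of control replicate 1. The members' median log2 fold change was -0.27 (all tested genes -0.01). It became -0.55 against control replicate 2 alone and 0.07 against control replicate 1 alone. With the trend over gene length removed from each library, it was -0.14 (all tested genes 0.02). With 1 control left out, the lone control is assumed to vary like the DMF libraries. On that assumption 3 members were called higher and 21 lower without control replicate 1, among 3342 genes called higher and 4055 called lower in all. Without control replicate 2, Ephx1 was called higher and Gstt1 and Mgst2 lower, among 321 genes called higher and 650 called lower in all. Without DMF replicate 1, Gstt1 was the single member called, and without DMF replicate 2 there was none.

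**Figure D1:**
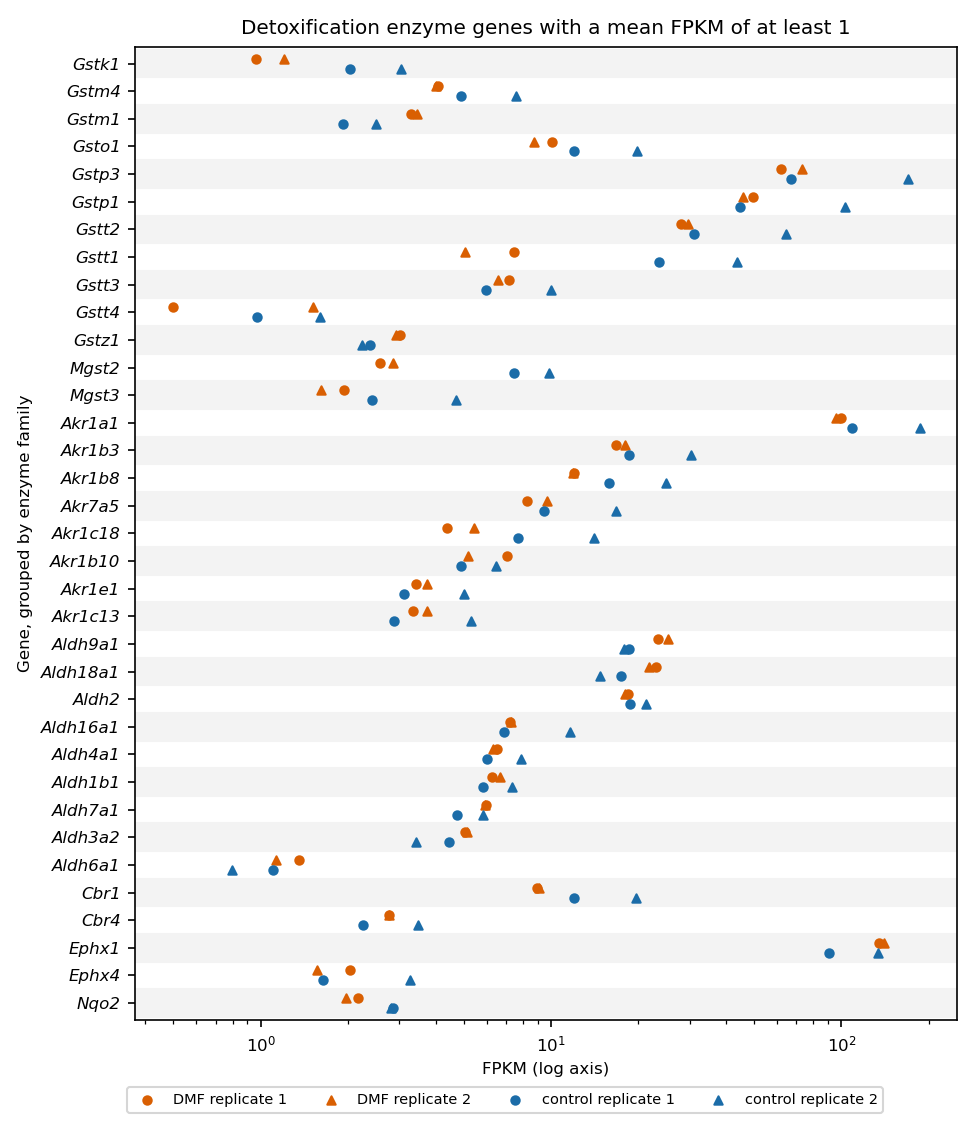
FPKM (log axis) of the 35 tested members in each library, grouped by enzyme family. Orange points are the DMF libraries and blue points the controls, with circles for replicate 1 and triangles for replicate 2. In 29 of the 35 genes the triangle of control replicate 2 lies right of the circle of control replicate 1, while Gstt1 and Mgst2 lie far left of both controls in both DMF libraries.

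The promoter windows of 5 members are shown: Nqo1, the marker enzyme of the pathway, Gstt1 and Mgst2, the members with the largest negative log2 fold changes, and Aldh9a1 and Aldh18a1, which lay above both controls and hold matches to the motifs searched. Each runs from 250 bases before to 50 after the gene start in RefSeq (GRCm38.p6), 5′ to 3′, in lower case, with capitals marking matches to TGACNNNGC, the core of the antioxidant response element, or GCGTG, the core of the xenobiotic response element, on either strand (a match on the other strand of GCGTG reads CACGC).
Nqo1, chr8:107403156-107403455, minus strand: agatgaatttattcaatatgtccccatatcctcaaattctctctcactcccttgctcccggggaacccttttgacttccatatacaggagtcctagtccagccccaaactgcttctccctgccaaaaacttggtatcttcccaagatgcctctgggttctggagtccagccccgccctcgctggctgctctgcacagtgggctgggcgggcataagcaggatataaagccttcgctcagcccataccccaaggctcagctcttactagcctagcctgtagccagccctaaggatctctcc
Gstt1, chr10:75797682-75797981, minus strand: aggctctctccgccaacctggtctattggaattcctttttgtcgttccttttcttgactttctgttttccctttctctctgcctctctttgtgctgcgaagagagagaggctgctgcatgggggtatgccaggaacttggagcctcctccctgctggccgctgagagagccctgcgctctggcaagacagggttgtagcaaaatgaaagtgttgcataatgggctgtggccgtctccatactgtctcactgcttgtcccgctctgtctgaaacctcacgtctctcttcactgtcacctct
Mgst2, chr3:51660929-51661228, plus strand: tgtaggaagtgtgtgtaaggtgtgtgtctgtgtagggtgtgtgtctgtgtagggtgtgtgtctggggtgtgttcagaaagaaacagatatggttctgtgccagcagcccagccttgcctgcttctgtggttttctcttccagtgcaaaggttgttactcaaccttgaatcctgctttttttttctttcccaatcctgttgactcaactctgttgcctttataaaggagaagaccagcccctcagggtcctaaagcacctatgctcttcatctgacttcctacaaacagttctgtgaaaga
Aldh9a1, chr1:167349741-167350040, plus strand: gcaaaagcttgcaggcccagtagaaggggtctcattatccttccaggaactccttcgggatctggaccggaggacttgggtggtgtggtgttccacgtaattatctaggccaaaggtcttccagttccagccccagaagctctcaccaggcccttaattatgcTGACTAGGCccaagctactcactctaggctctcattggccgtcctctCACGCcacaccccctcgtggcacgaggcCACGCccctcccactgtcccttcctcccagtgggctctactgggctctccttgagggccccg
Aldh18a1, chr19:40588414-40588713, minus strand: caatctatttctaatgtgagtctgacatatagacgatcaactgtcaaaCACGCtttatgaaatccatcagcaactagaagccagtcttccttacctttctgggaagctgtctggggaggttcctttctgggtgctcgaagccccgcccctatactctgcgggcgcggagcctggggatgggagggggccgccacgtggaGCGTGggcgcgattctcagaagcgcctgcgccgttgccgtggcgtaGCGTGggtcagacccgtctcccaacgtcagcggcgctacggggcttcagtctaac
The RefSeq starts used for Gstt1 and Mgst2 lie inside the gene bounds that the deposited table gives. Nqo1, Gstt1 and Mgst2 held no match in these windows, which says nothing of elements further away. Aldh9a1 held 1 match to TGACNNNGC, starting 87 bases before the gene start (position -87), and 2 to GCGTG, and Aldh18a1 held 3 to GCGTG. In neither did matches to the 2 motifs overlap. RefSeq promoters were found for 99 of the 116 members, 115 windows in all. TGACNNNGC occurred in 8 of them (6.96%), against 12.39% of 32851 promoters of the same length, and GCGTG in 29 (25.22%), against 32.39%. Among the 38 windows of tested members, 1 (2.63%), that of Aldh9a1, held TGACNNNGC and 16 (42.11%) held GCGTG. The xenobiotic core was in 6 of 10 windows (60%) of tested members above both controls and in 5 of 13 (38.46%) of those below. The antioxidant core was in 1 of these 10 and 0 of these 13. Akr1b8, Cbr1, Mgst3 and Nqo2, which lay below, held the xenobiotic core, while Ephx1 and Gstz1, which lay above, held neither. The Aldh windows shown were picked for their matches, and whether matches go with direction was not tested. A match is a description of the letters and not a binding site.

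Nqo1 was the 1 member with a higher level in DMF cultures at an unadjusted p under 0.05, by voom, and its level was low. It encodes the NADPH quinone reductase 1, which reduces quinones in a 2-electron step (GRCm38 chromosome 8, 107388225 to 107403206). Nqo1 had 36 and 39 reads in the DMF libraries, against 13 and 8 reads in the controls. Both DMF counts lay above both controls, and the FPKM ratio was 3.1 (1.31 ± 0.06 in DMF and 0.42 ± 0.07 FPKM in control cultures, SD, n = 2 each). By voom its log2 fold change was 1.58 ± 0.53 (SE), with an adjusted p of 0.443 that ran from 0.089 to 1.00 over 9 alternatives. Against control replicate 1 alone the log2 fold change was 1.43, and against control replicate 2 alone 1.75. No 50-base word of its transcripts was found in another annotated gene. Nqo2, its relative that uses dihydronicotinamide riboside in place of NADPH, lay the other way. Its level was 2.16 and 1.96 FPKM in DMF and 2.86 and 2.81 FPKM in control libraries, below both controls (log2 fold change -0.33 ± 0.19, limma adjusted p = 0.561), and its transcripts overlap Serpinb6a on the opposite strand. The ratio of Nqo1 to Nqo2 within a library was 0.586 and 0.686 in DMF, against 0.165 and 0.132 in control libraries. A single scaling factor per library cancels in this ratio, while a trend with gene length does not (Nqo1 1553 and Nqo2 4042 bases).

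The carbonyl reductases Cbr1 and Cbr3 lie close together on chromosome 16 and reduce ketones, quinones and aldehydes with NADPH. Cbr3 (93683215 to 93690990), an Nrf2 target, had 16 reads in each DMF library, against 10 and 6 reads in the controls. These counts did not overlap, and the SE was nearly as large as the difference (voom log2 fold change 0.75 ± 0.63, adjusted p = 0.597). Cbr1 (93605853 to 93610505) was at 8.94 and 9.08 FPKM in DMF and 11.97 and 19.56 FPKM in control libraries. Its log2 fold change of -0.71 ± 0.28 (limma adjusted p = 0.536) was -0.37 against control replicate 1 alone and -1.04, with an adjusted p of 0.00246, against control replicate 2 alone. The Cbr3 to Cbr1 ratio was 0.078 and 0.0753 in DMF libraries, against 0.0376 and 0.0176 in controls. Cbr4, part of mitochondrial fatty acid synthesis, was at 2.78 and 2.76 FPKM in DMF and 2.24 and 3.49 FPKM in control libraries (-0.02 ± 0.24 on the log2 scale, 0.22 without control replicate 2). Its groups overlapped.

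Ephx1 had the highest mean level of all members. It encodes microsomal epoxide hydrolase, which adds water to reactive epoxides in the endoplasmic reticulum (chromosome 1, 180976210 to 181020904). Ephx1 was at 134.8 and 140.1 FPKM in DMF libraries, against 90.4 and 133.2 FPKM in controls. Both DMF values lay above both controls, but above control replicate 2 by a ratio of 1.03 and above control replicate 1 by 1.52 (means of the DMF libraries). The log2 fold change was 0.32 ± 0.28 (limma adjusted p = 0.602). It was 0.60 with an adjusted p of 0.0257 without control replicate 2 and 0.05 without control replicate 1. Ephx1 took 22.7% and 23.3% of the summed FPKM of all members in DMF and 15.6% and 13.4% in control libraries. The related gene Ephx4 was at 2.02 and 1.56 FPKM in DMF and 1.65 and 3.27 FPKM in control libraries, with overlapping groups (log2 fold change -0.27 ± 0.31, limma adjusted p = 0.667, and 0.07 without control replicate 2).

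Glutathione S-transferases couple glutathione to electrophiles, and among their 11 tested genes 2 lay above both controls (26.4% of all tested genes did), 5 below both (26.8%) and 4 overlapped. Gstt1, a theta-class transferase that acts on small halogenated compounds, had the largest log2 fold change in size of all tested members (chromosome 10, 75783813 to 75798584). It was at 7.47 and 5.05 FPKM (209 and 144 reads) in DMF libraries, against 23.5 and 43.5 FPKM (637 and 926 reads) in controls. Both DMF libraries lay well below the lower control, and the mean was 5.35-fold lower in DMF than in control cultures (6.26 ± 1.72 and 33.5 ± 14.1 FPKM, SD, n = 2 each). The log2 fold change of -2.21 ± 0.37 had a limma adjusted p of 0.237. Leaving out control replicate 2 gave -1.78 (adjusted p = 0.0458) and leaving out control replicate 1 gave -2.64 (adjusted p = 0.00429). With a single DMF library the value was -2.45 (adjusted p = 0.0401) for replicate 2 alone and -1.96 (adjusted p = 0.24) for replicate 1 alone. The CD8 T and NK cell markers were also lower in both DMF libraries, as given above, and their part in this difference and in that of Mgst2 was not tested.

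The other 3 theta genes lie in the same cluster on chromosome 10, between 75774115 and 75837424, and are transcribed from the same strand. Gstt2 was at 28.0 and 29.5 FPKM in DMF and 31.0 and 64.2 FPKM in control libraries, just below both (-0.62 ± 0.39 on the log2 scale, limma adjusted p = 0.561, -0.10 without control replicate 2 and -1.13, adjusted p = 0.00195, without control replicate 1). Gstt3, at 7.14 and 6.55 FPKM in DMF and 5.98 and 9.96 FPKM in control libraries, overlapped (-0.16 ± 0.28, 0.17 without control replicate 2 and -0.48, adjusted p = 0.0195, without control replicate 1). Gstt4 was at 0.497 and 1.52 FPKM in DMF and 0.97 and 1.6 FPKM in control libraries, on 9 to 28 reads, and overlapped too (-0.22 ± 0.36, and 0.15 without DMF replicate 1). In none of these 3 neighbours did the DMF libraries lie as far below the lower control as in Gstt1. The ratio of Gstt1 to Gstt2 was 0.267 and 0.171 in DMF, against 0.76 and 0.678 in control libraries, and that of Gstt1 to Gstt3 was 1.05 and 0.77, against 3.94 and 4.37. The difference between these genes was not tested. No 50-base word of the transcripts of Gstt1 was found in another annotated gene.

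**Figure D2:**
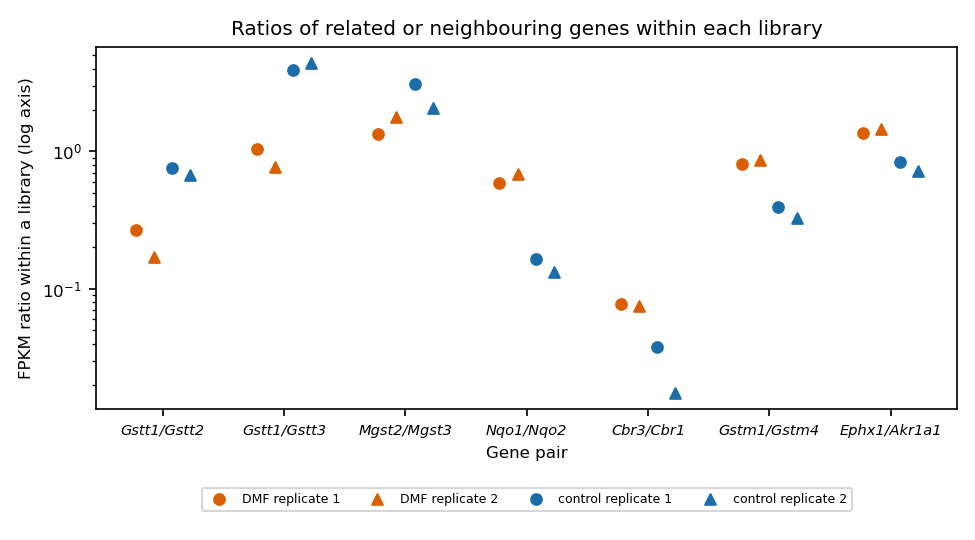
FPKM ratio within each library (log axis) for 7 pairs of members, chosen after their values were seen. The pairs are related or neighbouring genes, except Ephx1 and Akr1a1, which belong to separate families on chromosomes 1 and 4. Orange points are DMF and blue points control libraries, with circles for replicate 1 and triangles for replicate 2. The ratios of Gstt1 to Gstt2 and to Gstt3 and of Mgst2 to Mgst3 lie lower in DMF than in control libraries, those of Nqo1 to Nqo2, Cbr3 to Cbr1, Gstm1 to Gstm4 and Ephx1 to Akr1a1 higher, with no overlap in any pair.

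The log2 fold changes of the other transferase classes were smaller than that of Gstt1. Gstm1 (mu class) was at 3.3 and 3.45 FPKM in DMF and 1.92 and 2.49 FPKM in control libraries, above both controls (0.46 ± 0.20 on the log2 scale, limma adjusted p = 0.55). Its transcripts share 18.88% of their 50-base words with other genes, led by the pseudogene Gstm2-ps1, so its reads may be split or shared. Gstm4 of the same cluster was at 4.07 and 4.02 FPKM in DMF and 4.89 and 7.57 FPKM in control libraries, below both (-0.50 ± 0.25, adjusted p = 0.561, -0.23 without control replicate 2 and -0.77, adjusted p = 0.00709, without control replicate 1). The Gstm1 to Gstm4 ratio was 0.812 and 0.86 in DMF, against 0.391 and 0.328 in control libraries. Gstz1 encodes maleylacetoacetate isomerase of tyrosine breakdown, the step before fumarylacetoacetate is split to fumarate. It was at 3.03 and 2.93 FPKM in DMF and 2.37 and 2.23 FPKM in control libraries, above both (0.27 ± 0.19, adjusted p = 0.567).

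Gstk1, a transferase of mitochondria and peroxisomes, was at 0.967 and 1.2 FPKM (26 and 33 reads) in DMF and 2.04 and 3.03 FPKM (53 and 62 reads) in control libraries. Both DMF values lay below both controls (-0.75 ± 0.25, limma adjusted p = 0.503, -0.54 without control replicate 2 and -0.95 without control replicate 1). Gsto1, an omega-class enzyme that acts on disulfides with glutathione, was at 10.1 and 8.71 FPKM in DMF and 12.0 and 19.7 FPKM in control libraries (-0.66 ± 0.28, adjusted p = 0.549). That difference was -0.33 without control replicate 2 and the adjusted p was 0.00642 without control replicate 1. The pi-class genes Gstp1 and Gstp3 were the most abundant transferases, and here control replicate 2 lay above the other 3 libraries. Gstp3 was at 62.0 and 73.4 FPKM in DMF libraries, against 67.0 and 169.9 FPKM in controls. Gstp1 was at 49.6 and 45.8 FPKM in DMF libraries, against 44.6 and 102.6 FPKM in controls. Their log2 fold changes of -0.66 ± 0.50 and -0.50 ± 0.44 became 0.01 and 0.09 without control replicate 2, and -1.32 and -1.09, with adjusted p of 0.00434 and 0.00242, without control replicate 1. Gstp1 shares 33.74% of its 50-base words with other genes, led by Gstp2, while Gstp3 shares 0%. Gsta4, an alpha-class enzyme for the lipid aldehyde hydroxynonenal, had 0 and 6 reads in DMF and 5 and 6 reads in control libraries.

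Microsomal transferases are membrane proteins of a separate family. Mgst2, which can make leukotriene C4 from glutathione and leukotriene A4, was the second member with a large difference (chromosome 3, 51660360 to 51682677). It was at 2.58 and 2.86 FPKM (175 and 198 reads) in DMF libraries, against 7.48 and 9.83 FPKM (491 and 507 reads) in controls. The groups lay far apart, and the mean was 3.18-fold lower in DMF than in control cultures (2.72 ± 0.20 and 8.65 ± 1.66 FPKM, SD, n = 2 each). The log2 fold change of -1.37 ± 0.21 had a limma adjusted p of 0.222, the lowest of the tested members. Against control replicate 1 alone it was -1.19 (adjusted p = 0.0338) and against control replicate 2 alone -1.54 (adjusted p = 0.00291). With a single DMF library it did not pass (adjusted p = 0.645 for replicate 1 alone and 0.778 for replicate 2 alone). The ratio of Mgst2 to Mgst3 was 1.33 and 1.78 in DMF, against 3.10 and 2.09 in control libraries. Mgst3 was at 1.94 and 1.61 FPKM in DMF and 2.42 and 4.71 FPKM in control libraries (-0.67 ± 0.32, adjusted p = 0.559; -0.30 without control replicate 2 and -1.04, adjusted p = 0.0111, without control replicate 1). Mgst1, the form known from liver, had 13 reads in all.

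**Figure D3:**
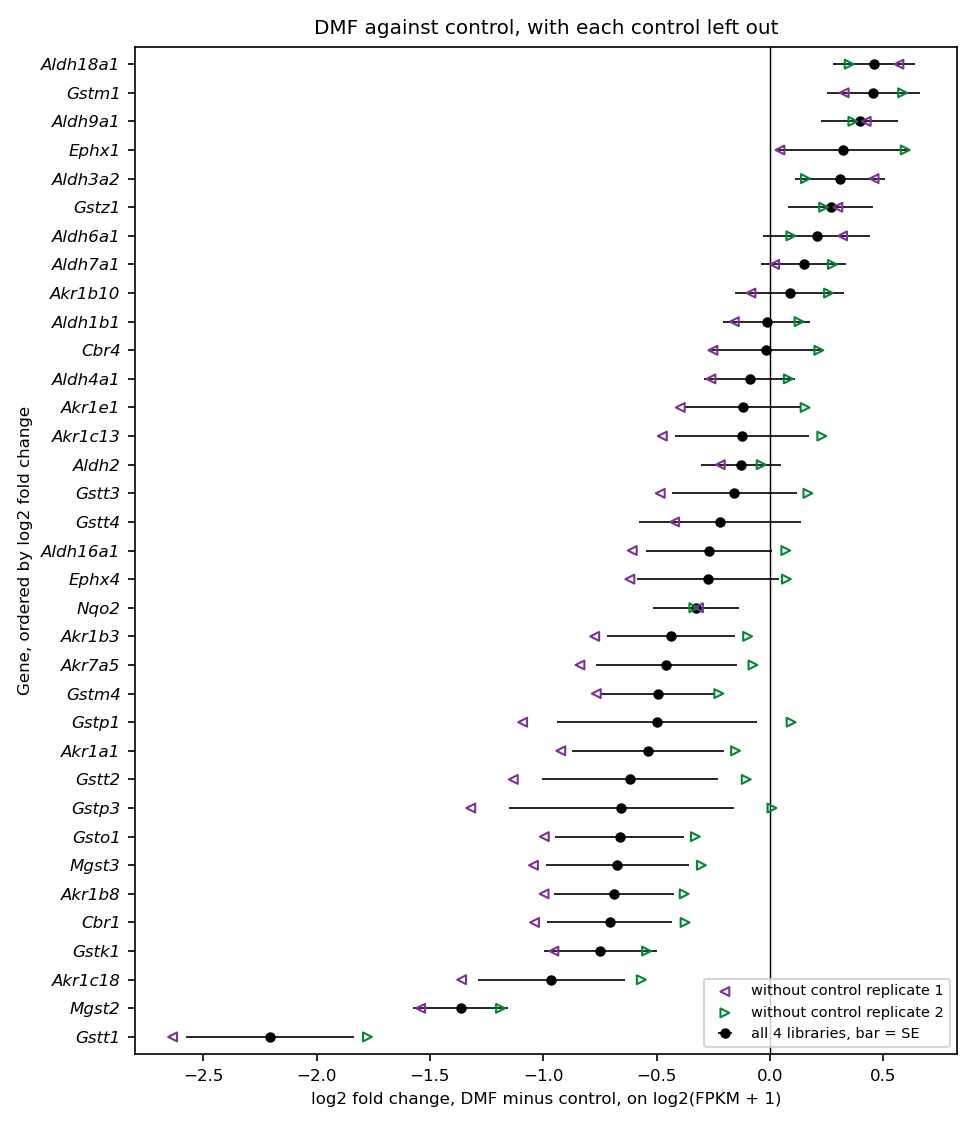
Log2 fold change (DMF minus control, on log2(FPKM + 1)) of the 35 tested members, ordered by size. Black points with bars are the fit to all 4 libraries with its SE, and open triangles are the fits without control replicate 1 (left-pointing) and without control replicate 2 (right-pointing), where the gene stayed above 1 FPKM. Gstt1 and Mgst2 lie below -1 in all 3 fits, and the members' median is 0.07 without control replicate 2.

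Aldo-keto reductases turn aldehydes and ketones into alcohols. Of 8 tested genes 4 lay below both controls (26.8% of all tested genes did), 0 above (26.4%) and 4 overlapped, with a median log2 fold change of -0.45 (all tested genes -0.01). Akr1a1, the aldehyde reductase that also serves vitamin C synthesis in mice, was the second most abundant member, at 99.7 and 95.6 FPKM in DMF and 108.5 and 185.9 FPKM in control libraries (-0.54 ± 0.34, limma adjusted p = 0.561, -0.15 without control replicate 2). Aldose reductase, Akr1b3, which makes sorbitol from glucose, was at 16.7 and 17.9 FPKM in DMF and 18.6 and 30.3 FPKM in control libraries (-0.44 ± 0.28, adjusted p = 0.561, -0.10 without control replicate 2). In both genes control replicate 1 lay close above the DMF libraries and control replicate 2 far above. Akr1b8 of the same cluster on chromosome 6 was at 12.0 and 11.9 FPKM in DMF and 15.8 and 24.9 FPKM in control libraries (-0.69 ± 0.26, adjusted p = 0.533, -0.38 without control replicate 2). Akr1c18, whose product inactivates progesterone, was at 4.39 and 5.41 FPKM (97 and 122 reads) in DMF and 7.71 and 14.1 FPKM (165 and 237 reads) in control libraries. Its log2 fold change of -0.96 ± 0.32 (adjusted p = 0.503) was -0.57 without control replicate 2. Without control replicate 1 the values of Akr1a1, Akr1b3 and Akr1c18 were -0.92, -0.77 and -1.36, and the adjusted p of all 4 genes ran from 0.00195 to 0.0055. Akr1c12 and Akr1c13 share 28.63% and 24.23% of their 50-base words and cannot be fully separated.

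Aldehyde dehydrogenases oxidise aldehydes to acids, some of them as steps of amino acid or lipid metabolism, and were the family with the most members above both controls, 5 of the 9 tested, against 1 below and 3 overlapping (median log2 fold change 0.15). Over all tested genes 26.4% lay above and 26.8% below both controls. Direction went with gene length among the tested members. Those above both controls had a median length of 4580 bases and those below 2261 bases. The 5 Aldh genes above were 3383 to 5784 bases long, and the part of length in their direction was not tested. Aldh18a1, a mitochondrial enzyme that makes the precursor of proline, was at 23.0 and 21.8 FPKM in DMF and 17.3 and 14.8 FPKM in control libraries (0.46 ± 0.18, limma adjusted p = 0.541). Aldh9a1, which acts in carnitine synthesis, was at 23.4 and 25.2 FPKM in DMF and 18.6 and 17.8 FPKM in control libraries (0.40 ± 0.17, adjusted p = 0.549). In these 2 genes the controls lay close together and below both DMF libraries. Their log2 fold changes were 0.35 and 0.37 without control replicate 2. Aldh3a2, the fatty aldehyde dehydrogenase, was at 5.06 and 5.12 FPKM in DMF and 4.46 and 3.42 FPKM in control libraries (0.31 ± 0.20, adjusted p = 0.561, 0.16 without control replicate 2). Without control replicate 1 these 3 genes had values of 0.57, 0.43 and 0.46 with adjusted p of 0.00676, 0.0152 and 0.0246, and were the 3 members called higher there. Aldh7a1 and Aldh6a1 were the other 2 above both controls, and Aldh2, which clears acetaldehyde, the 1 below both. Aldh16a1 was at 7.23 and 7.31 FPKM in DMF and 6.87 and 11.59 FPKM in control libraries, with overlap (-0.27 ± 0.28, 0.07 without control replicate 2 and -0.61, adjusted p = 0.00727, without control replicate 1).

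Members under a mean of 1 FPKM were read from recovered reads with voom. Of the 17 with at least 20 reads, 5 lay above both controls (Nqo1, Cbr3, Aldh5a1, Aldh1l2 and Ephx3), where 25.2% of all 4693 such genes did. Another 4 lay below both (Gstm5, Aldh1l1, Ugt1a7c and Ugt1a6a), where 18.6% did. At an unadjusted voom p under 0.05, Nqo1 was the 1 member higher, where the share of all such genes was 4.13%, and Aldh1l1, Ugt1a7c and Ugt1a6a were the 3 lower, where it was 5.24%. A member near the minimum of 20 reads can have passed through the group where it is high.

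Aldh1l1, a cytosolic folate enzyme that oxidises formyltetrahydrofolate, had 30 and 26 reads in DMF libraries, against 78 and 49 reads in controls. The groups did not overlap, and the voom log2 fold change was -1.38 ± 0.40 (adjusted p = 0.387). Here control replicate 1 was the higher one, and the adjusted p was 0.0386 without it (-1.21) and 0.00903 without control replicate 2 (-1.53). Its transcripts share 10.02% of their 50-base words with other genes. Its mitochondrial counterpart Aldh1l2 had 20 and 24 reads in DMF and 12 and 1 reads in control libraries.

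The UDP-glucuronosyltransferases attach glucuronic acid, and those of the Ugt1 locus each join a first exon of their own to shared later exons. Ugt1a7c had 54 and 46 reads in DMF and 98 and 62 reads in control libraries (voom -0.89 ± 0.35, adjusted p = 0.487; -1.03, adjusted p = 0.038, without control replicate 2). Ugt1a6a, whose product conjugates small phenols, had 0 and 0 reads in DMF, against 22 and 4 reads in control libraries. Its control mean of 0.177 FPKM was 4.71-fold a floor of 3 reads per DMF library (0.0376 FPKM). That ratio makes no allowance for counting error in the controls. Control replicate 2 was at 0.0666 FPKM, and most of the reads of Ugt1a6a came from control replicate 1. All of its reads are in the controls, so it passed the minimum of 20 reads only through the group where it is high. These genes share 53.65% and 52.08% of their 50-base words, with other genes, led by those of the Ugt1 locus, so their reads may be assigned unevenly among them. Of the sulfotransferases none reached 1 FPKM, and the most abundant was Sult2b1, which sulfates cholesterol. Sult2b1 had 70 and 59 reads in DMF and 64 and 63 reads in control libraries, with overlap (voom -0.21 ± 0.35, adjusted p = 0.784).

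**Figure D4:**
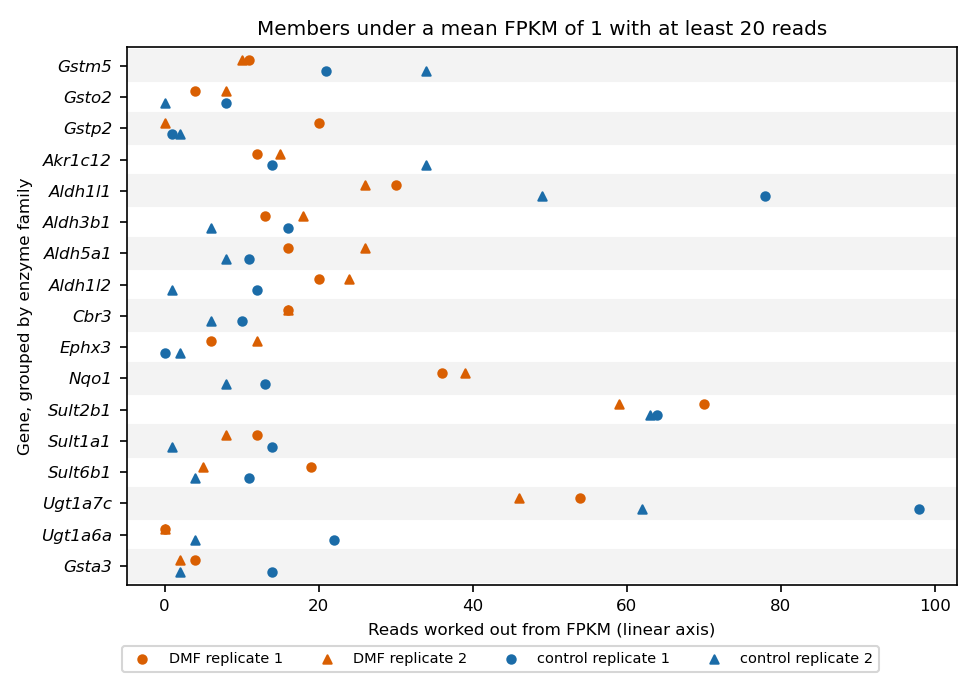
Recovered reads per library of members under a mean of 1 FPKM with at least 20 reads in all, on a linear axis. Orange points are DMF and blue points control libraries, with circles for replicate 1 and triangles for replicate 2. Nqo1 has 36 and 39 reads in DMF libraries against 13 and 8 in controls, and Ugt1a6a has 0 in both DMF libraries.

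Genes around these families were taken from 2 lists. Of 28 Nrf2 regulators and targets outside the families, 25 were tested and 0 were called by limma in either direction. Of the 25, 9 lay above and 7 below both controls, where 26.4% and 26.8% of all tested genes did. The median log2 fold change was -0.10. The 9 above were Abcc4, Bach1, Gclc, Gclm, Hmox1, Mafg, Mafk, Srxn1 and Txnrd1, with values from 0.16 (Mafk) to 0.89 (Gclc). The 7 below were Blvrb, Gsr, Keap1, Pgd, Sqstm1, Taldo1 and Tkt, with values from -0.57 (Taldo1) to -0.17 (Keap1). RNA of Nrf2 itself (Nfe2l2) was at 12.7 and 12.0 FPKM in DMF and 12.9 and 12.0 FPKM in control libraries. Keap1 was at 19.6 and 18.9 FPKM in DMF, against 21.4 and 22.1 FPKM in control libraries. The heme oxygenase gene Hmox1, a classical Nrf2 target, was at 13.4 and 13.7 FPKM in DMF and 7.19 and 10.4 FPKM in control libraries (0.59 on the log2 scale, limma adjusted p = 0.536). Of 19 genes of the aryl hydrocarbon receptor and of the first phase of drug metabolism, 10 were tested and 0 were called. Above both controls lay 3 (Ahr, Cyp1a1 and Tiparp) and below 4 (Adh5, Cyb5a, Cyb5r3 and Cyp4f16), where 26.4% and 26.8% of all tested genes did. The median log2 fold change was -0.22. Over all 19 listed genes 5 lay above, with Ahrr and Cyp1b1 under 1 FPKM, and 7 below. Ahrr had 58 and 101 reads in DMF and 11 and 9 reads in control libraries, and Cyp1b1 78 and 86 reads, against 7 and 6. Tiparp was at 7.32 and 7.91 FPKM in DMF and 3.81 and 3.28 FPKM in control libraries. Ahr, the receptor, was at 5.54 and 6.05 FPKM in DMF, against 0.97 and 0.512 FPKM in control libraries (1.98 ± 0.23, adjusted p = 0.188). Cyp1a1, its classical target, was at 5.65 and 5.61 FPKM in DMF, against 0.324 and 0.696 FPKM in control libraries (2.15 ± 0.23, adjusted p = 0.176). Among the members known as targets of the aryl hydrocarbon receptor, Nqo1 had more reads in both DMF libraries and Ugt1a6a had none in either. Aldh3a1 (chosen, like Aldh1l2 above, after its values were seen) had 1 and 0 reads in DMF and 3 and 3 reads in control libraries. Gsta1 had no read anywhere.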

How the data were processed

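The authors deposited 1 table of FPKM per gene for 2 DMF and 2 control libraries, per the file headers, beside each gene's name, biotype, position and length. The submitters' processing notes name edgeR, with no role, and the build mm8, while 98.262% of gene coordinates matched GENCODE annotation of GRCm38, and 7 of 116 members did not. The aligner, the counting method and any use of strand are not stated in the sources used here, so genes that overlap on opposite strands (Nqo2 and Serpinb6a) may share reads. FPKM times gene length gave whole reads, within 0.01 of a whole number, for 100% of values. No library column was left unused.

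Genes with a mean of at least 1 FPKM (12166) were tested with limma 3.58.1 (trend) in R 4.3.3 on log2(FPKM + 1), DMF against control, with Benjamini-Hochberg adjustment over all of them. These fold changes understate the change of low genes. Genes with at least 20 recovered reads in all (16597) were tested with limma's voom, with library sizes implied by the FPKM values. Both were also run on simulated data with the same spread in all 4 libraries. Here the controls differed more than the DMF libraries did, so that run does not show how the tests perform on these data. Shared 50-base words were counted against GENCODE transcripts.

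Members given with values were the markers Nqo1, Cbr3 and Ephx1, any member past the threshold, in each family or Gst class the up to 4 tested members with the smallest unadjusted p and the most abundant member, and low members with an unadjusted voom p under 0.05. The members and all lists were chosen with earlier results of these data known. The labels state no pairing of same-numbered libraries, so the main test used no replicate block. Alternatives were other pseudocounts, filters, scalings and variance models, removal of the length trend, voom, a replicate block and each library left out.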

Additional observations from a re-analysis of the deposited data

How the results depend on the processing

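Of 406 alternatives run on the 26 members named from the FPKM test, 372 kept direction and side of the threshold, 25 passed the threshold as the test of all 4 libraries had not, and 9 changed sign. Of 53 run on the 6 members named from reads, 49 kept both, 4 passed and 0 changed sign. With a library left out, log2 fold changes ran from -0.61 to 0.0706 for Aldh16a1, -0.25 to 0.22 for Cbr4, -0.62 to 0.0736 for Ephx4, -1.09 to 0.0942 for Gstp1, -1.32 to 0.0096 for Gstp3, -0.48 to 0.17 for Gstt3 and -0.60 to 0.15 for Gstt4. Removing the length trend gave 0.062 for Ephx4 and 0.10 for Gstt4. The cause was not tested. Leaving out a library gave 0 to 3 members called higher and 0 to 21 lower, and 10 to 3342 genes called higher and 17 to 4055 lower in all. It put 8 to 18 members above both controls and 14 to 27 below both. The count above both was 14 with no filter, 4 with a mean of at least 5 FPKM and 13 with voom, by the number of genes tested. With a replicate block, 2 members (Gstt1 and Mgst2) were called lower, and 203 genes higher and 349 lower in all. Same-numbered libraries deviated with a correlation of -0.0233 over 12166 genes. The controls differed more from each other than the DMF libraries did, so this value cannot show whether the numbers pair the samples. Gstt4 fell under the filter without control replicate 2 and has no value there. Read depth limits the members under 1 FPKM, where a library held 0 to 98 reads, and intervals and floors cover counting error only.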

Other observations

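Gstp2, the near-identical neighbour of Gstp1, had 20 and 0 reads in the DMF libraries and 1 and 2 reads in the controls. Of its 50-base words 54.32% occur in other genes.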
